A study of Mus musculus with 83 samples.

Results

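AGO2 pull-down and total small RNA were compared in Dnmt1 KO mouse embryonic stem cells (ESCs), with 4 AGO2 libraries set against 3 total small RNA libraries of day 9, 7 of the 83 libraries of the series. The libraries were taken by their titles, and the total libraries whose titles end in R1 were not part of the main comparison. The cells came from a C57BL/6 ESC line in which both alleles of Dnmt1 carry loxP sites (loxP/loxP), and Cre recombinase was induced with tamoxifen to delete the gene. The line and its alleles are named in the study's methods, whereas the labels give E14 as the strain. All 7 libraries share that line, its loxP alleles and the induced deletion, so it is a single parental line that is represented. The titles give no day for the pull-down, and the study places it at day 9. The genotype tag of the 4 AGO2 libraries titled DNMT1KO reads Wildtype and the tag of those titled control reads Dnmt1 KO. The tags of the libraries titled none contradict their titles in the same way. For all of these the titles were followed. As a reference, the same ratio was computed in control cells (4 AGO2 and 3 total libraries), and a single Dnmt1 KO library labelled none was read as a background: the study describes beads with extract but without serum, and the labels do not say what it is.

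AGO2 is an Argonaute protein, the core of the RNA-induced silencing complex. A miRNA is cut from a hairpin by the Microprocessor and by DICER, and 1 strand of the resulting duplex is kept by Argonaute, which then reads target RNAs mainly through the seed, the bases 2 to 8 of the miRNA. DNMT1 copies DNA methylation onto new strands at replication, and its loss demethylates imprinted regions such as Dlk1-Dio3 on mouse chromosome 12, where a large miRNA cluster lies on the maternally expressed strand. The comparison asks whether the miRNAs that rise after the loss of Dnmt1 are recovered with AGO2 in the same proportion as other miRNAs.

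The mature sequences of the miRNAs on which the account turns are printed 5′ to 3′ from RefSeq (GRCm38.p6), with the seed in capitals. The deposited features are whole hairpins, so the data do not say which arm was sequenced, and the first set gives both arms. RefSeq mature sequences were matched by symbol for 221 of 281 tested miRNA features, and for 48 of 53 tested miRNAs raised in Dnmt1 KO cells. The first set shows raised miRNAs of the Dlk1-Dio3 region and of the X chromosome that differed widely in recovery.
mmu-miR-127-5p: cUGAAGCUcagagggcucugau
mmu-miR-127-3p: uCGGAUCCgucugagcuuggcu
mmu-miR-434-5p: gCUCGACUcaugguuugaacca
mmu-miR-434-3p: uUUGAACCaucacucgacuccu
mmu-miR-541-5p: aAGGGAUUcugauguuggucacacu
mmu-miR-541-3p: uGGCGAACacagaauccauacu
mmu-miR-382-5p: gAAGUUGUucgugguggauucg
mmu-miR-382-3p: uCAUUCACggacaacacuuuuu
mmu-miR-679-5p: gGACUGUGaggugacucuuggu
mmu-miR-679-3p: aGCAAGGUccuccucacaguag
mmu-miR-463-5p: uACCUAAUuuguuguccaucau
mmu-miR-463-3p: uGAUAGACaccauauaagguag

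The second set shows miRNAs that share a seed and cover a range of values, the miR-92 seed AUUGCAC and the let-7 seed GAGGUAG, together with miR-672 and miR-423, which were among the most enriched.
mmu-miR-92a-3p: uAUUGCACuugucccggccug
mmu-miR-92b-3p: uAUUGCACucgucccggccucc
mmu-miR-25-3p: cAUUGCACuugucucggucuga
mmu-miR-32-5p: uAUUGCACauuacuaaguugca
mmu-miR-363-3p: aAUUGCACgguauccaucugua
mmu-miR-367-3p: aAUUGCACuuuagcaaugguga
mmu-let-7i-5p: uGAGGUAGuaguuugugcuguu
mmu-let-7b-5p: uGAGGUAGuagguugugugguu
mmu-miR-98-5p: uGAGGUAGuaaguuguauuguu
mmu-let-7d-5p: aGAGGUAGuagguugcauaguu
mmu-miR-672-5p: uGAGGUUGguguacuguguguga
mmu-miR-423-5p: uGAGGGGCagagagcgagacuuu

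The AGO2 libraries were almost pure miRNA. miRNA features held 98.1, 98.1, 97.9 and 98.1% of the reads in AGO2 replicates 1 to 4, against 58.9, 57.2 and 59.5% in the 3 total libraries, so the groups were far apart (98.1% ± 0.137, SD, n = 4, against 58.5% ± 1.16, n = 3). The difference of 39.5 percentage points had p = 0.0571 in an exact two-sided permutation test, the smallest value that 4 against 3 libraries allow, and 0.0571 after Benjamini-Hochberg adjustment over 8 feature classes. With the 5 most abundant miRNA features taken out of the miRNA sum but kept in the library total, the difference was 14.7 points. That value also loses the reads these 5 held, so it does not measure the enrichment of the other miRNAs. The library labelled none held 45.9% miRNA (Wilson 95% interval 44.9 to 46.9%) among only 9830 reads.

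Fragments of other RNAs fell away. Small nucleolar RNAs, which guide chemical modification of other RNAs, held 15.4 to 17.4% of the total libraries and 0.0463 to 0.0893% of the AGO2 libraries, a ratio of means of 238. Reads in long non-coding genes that overlap no miRNA went from 6.97 to 7.78% to between 0.0277 and 0.0543%. Protein-coding genes that overlap no miRNA kept more, 1.21 to 1.48% against 19.7 to 21.2%, a ratio of 15.5. The loosely defined class of misc_RNA differed least as a sum, 0.353 to 0.652% against 0.665 to 0.697%. Of its 9 tested features 8 were lower (88.9%, beside 76.8% of all features tested). The 1 higher feature was BX470216.1, with a mean scaled RPM (defined below) of 3977 in AGO2 and 1295 in the totals. Ccdc30 overlaps it, was also higher (4498 against 1611.7), and is counted among the protein-coding genes. Every one of these classes separated the groups without overlap and reached the same smallest permutation p of 0.0571, and in the library labelled none protein-coding reads (32.4%) and snoRNA reads (3.45%) were above the AGO2 level.

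**Figure D1:**
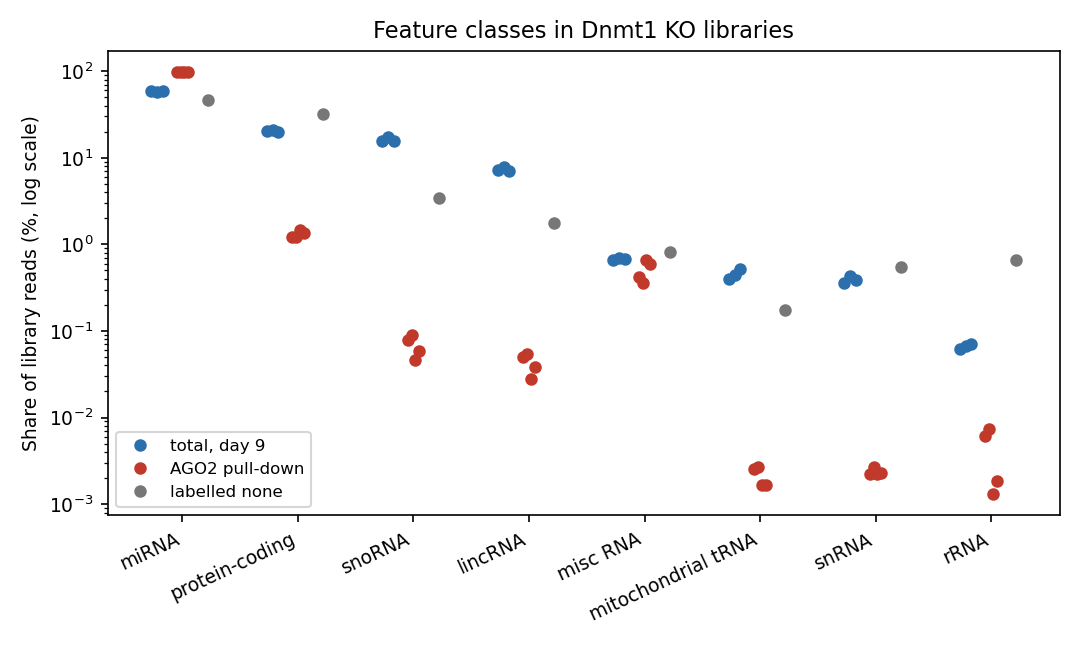
Share of library reads (%, log axis) per feature class in the Dnmt1 KO libraries; each point is 1 library (3 total of day 9, 4 AGO2, 1 labelled none), and classes other than miRNA count only features that overlap no miRNA. The 4 AGO2 libraries lie at 97.9 to 98.1% for miRNA and below every total library in the other 7 classes.

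Because nearly all AGO2 reads are miRNA, values are given below as scaled RPM: RPM from the deposited values, divided by a factor that sets the typical miRNA equal between libraries (TMM, the trimmed mean of M values, over miRNA features). A log2 value of 0 then means recovery like the typical miRNA, not absence of enrichment. With the library totals in place of these factors the median miRNA moved from 0.03 to 0.63, and with TMM over all features to 3.28, so that directions below are relative to the typical miRNA. With TMM over all features Mir127, Mir382, Mir19b-1 and Mir669c, which were lower than the typical miRNA, were at 2.38, 0.53, 1.44 and 1.77. Fold changes are on the log2(scaled RPM + 1) scale, which understates changes of rare features.

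Of 1400 features tested with limma, 1216 were called at a Benjamini-Hochberg adjusted p under 0.05, which is 86.9%: 141 (10.1%) were higher and 1075 (76.8%) lower in AGO2. With TMM over all features the split was 429 higher and 851 lower. Among the 281 miRNA features tested, 85 (30.2%) were higher and 79 (28.1%) lower, against 143 and 49 with library totals and 251 and 15 with TMM over all features.

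The AGO2 replicates formed 2 subsets. Over miRNA features, replicates 1 and 2 correlated at r = 0.991 and replicates 3 and 4 at 0.992, whereas pairs across the subsets gave 0.955 to 0.966 (log2 scale, across 281 features that are not independent); 58 of the 281 differed by over 1 on the log2 scale between the subset means. All pairs of replicates within a group differed by more than sampling noise, with a chi-square of at least 37.9 for each degree of freedom. The labels do not say whether the 4 are separate cultures, and the series' design text speaks of 2 replicates for 2 of its samples, so p-values may rest on technical spread in part. Depth was 6184241 to 6239009 reads in the totals and 1152390, 1553877, 3373294 and 11520133 reads in AGO2 replicates 1 to 4. The Dnmt1 feature (NCBIM37, chr9:20711650-20757317) held 302 to 393 reads in the totals and 4 to 27 in AGO2; such reads may fall anywhere in its span and do not check the deletion.

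Raised miRNAs were chosen from other libraries, the totals of days 6 and 11, as miRNA features with an adjusted p under 0.05 and a log2 change over 1 in Dnmt1 KO against control on both days. Of 270 miRNA features tested there, 37.4% were higher on day 6 and 44.4% on day 11 at any size. The rule gave 55 miRNAs, of which 44 lie in Dlk1-Dio3 and 11 elsewhere, and 53 were abundant enough in the 7 libraries to be tested. The member nearest the threshold was Mir215 with 1.02 as its smaller change, and the nearest miRNA outside was Mir322 with 0.81. Mir770 and AC121784.5, both in Dlk1-Dio3, stayed untested with 50 to 83 reads in each total library and 5 to 88 in each AGO2 library.

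The median ratio of the raised miRNAs was near that of the other miRNAs, with members on both sides. Their median log2 AGO2 over total was 0.01 (quartiles -0.74 and 0.64), against 0.07 (quartiles -0.87 and 0.80) for 221 miRNAs that met neither the raised nor the lowered rule. The 221 are not all unchanged: some, such as Mir322 (0.81), were higher in Dnmt1 KO on both days by less than the cutoff. Among the raised miRNAs 14 were higher, 14 lower and 25 not called, shares of 26.4 and 26.4% beside 31.2 and 28.5% of the other miRNAs and 30.2 and 28.1% of all miRNAs. Libraries of the 2 groups did not overlap for 30 of the 53, beside 62.3% of all miRNAs tested. The difference of the medians was -0.05, also with library totals, and 0.01 with TMM over all features. The difference of median levels within a library gave another picture: the median level of the raised miRNAs was above that of the others by 0.41, 0.30 and 0.51 on the log2 scale in the totals and by 0.97, 0.90, 1.86 and 1.33 in AGO2, without overlap. The 7 tested miRNAs lowered in Dnmt1 KO (of 8 that met the lowered rule, below -0.5 on both days) had a median of -0.16, with 2 higher and 2 lower.

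**Figure D2:**
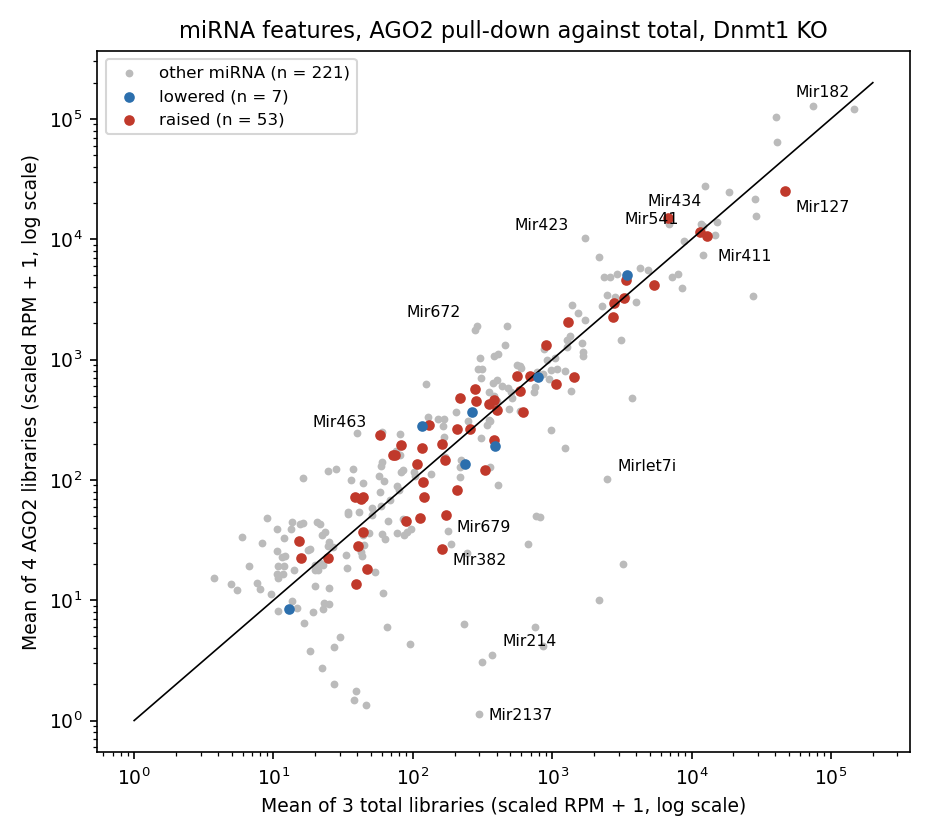
Mean scaled RPM + 1 of each tested miRNA feature in the 3 total libraries (x, log axis) and the 4 AGO2 libraries (y, log axis), with the line of equal values; red marks raised, blue lowered and grey other miRNAs. The 53 raised miRNAs lie on both sides of the line (median log2 0.01), Mir127 and Mir382 below it and Mir434 and Mir463 above it.

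These values depended on the day of the total libraries. Against totals of day 6 the raised miRNAs had a median of 0.49, with 26 higher and 5 lower (29.0 and 33.7% of all miRNAs), and the difference from the other miRNAs was 0.60. Against day 11 the difference was -0.50. Days 6 and 11 also served to choose the raised miRNAs, so these values are a description only. Against day 25, which the choice did not use, the difference was -1.18, with 4 higher and 35 lower of 54 tested (29.4 and 29.0% of all miRNAs). Over the same days the Dlk1-Dio3 miRNAs took 7.01 to 8.11% (day 6), 14.0 to 14.6% (day 9), 14.7 to 16.7% (day 11) and 22.9 to 23.1% (day 25) of the miRNA reads of Dnmt1 KO totals. In AGO2 replicates 1 to 4 they took between 10.2 and 11.9%, above every day 6 library and below every day 9 library.

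Summed over the list, the raised miRNAs took 14.8, 14.2 and 14.8% of miRNA reads in the totals and 11.4, 12.1, 10.5 and 11.08% in AGO2. The groups did not overlap, and Mir127 accounted for most of the gap. Mir127 alone took 6.60, 6.00 and 6.43% of miRNA reads in the totals and 3.54, 3.01, 3.03 and 2.66% in AGO2. Without it the raised miRNAs took 8.16 to 8.35% in the totals and 7.43 to 9.13% in AGO2, where the groups overlapped. The library labelled none, at 4512 miRNA reads, had 10.4% raised miRNAs and 2.88% Mir127, nearer to AGO2 than to the totals.

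Mir127 (NCBIM37, chr12:110831042-110831138, plus strand) lies within the span of Rtl1, a retrotransposon-derived imprinted gene to which the miRNAs of this stretch are antisense. Its scaled RPM was 49162.5, 44543.5 and 47414 in the totals and 28314, 24207.5, 24394 and 23316 in AGO2. All 4 AGO2 libraries were lower than all totals, by 0.91 on the log2 scale (SE 0.10, adjusted p = 1.74e-05, limma). Against totals of day 6 the log2 value of Mir127 was 0.14.

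Mir434 (chr12:110832716-110832809), its neighbour in Rtl1, went the other way. It had 6639.5, 6979.6 and 6660.01 scaled RPM in the totals and 13204, 16943, 12260.4 and 17358 in AGO2. The groups did not overlap, and the log2 difference was 1.13 (SE 0.15, adjusted p = 6.34e-05). Against totals of day 25 Mir434 was at -0.31. Within Rtl1, Mir431 was also higher (0.53, SE 0.17, adjusted p = 0.018), while Mir136 (0.09, SE 0.16) and Mir433 (0.28, SE 0.31) were not called.

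The next most abundant members were close to the typical miRNA. Mir541, in the Mirg transcript at the distal end of the cluster, had 12289, 11228 and 10944 scaled RPM in the totals and 11084, 12938, 10562 and 11446 in AGO2, a log2 difference of 0.00 (SE 0.12). Mir411 had 12051 to 14132 in the totals and 9054.4 to 13367 in AGO2 (log2 -0.30, SE 0.15, adjusted p = 0.1). The ranges overlapped for both, and Mir411 is among 6 of the 53 raised miRNAs that share a stretch of 20 bases with another miRNA feature, so their reads could be split between copies.

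The least recovered member was Mir382 (chr12:110971979-110972058), with 168, 160 and 154 scaled RPM in the totals and 23.3, 13.7, 42.2 and 23.8 in AGO2. Every AGO2 library was below every total, by 2.70 on the log2 scale (SE 0.33, adjusted p = 3.48e-05). Mir679 had 164 to 180 in the totals and 42.2 to 56.02 in AGO2 (log2 -1.77, SE 0.19, adjusted p = 1.25e-05). Mir493, AC121784.4, Mir496, Mir377, Mir329, Mir495 and Mir341 were lower as well, by 1.04 to 1.56 on the log2 scale.

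On the other side, Mir487b, Mir485, Mir543 and Mir337 were higher by 1.03 to 1.15 on the log2 scale, beside Mir434. Mir337 had 276 to 278 scaled RPM in the totals and 628, 665, 562 and 438 in AGO2. Mir540, the next miRNA feature downstream, had 1235.04 to 1341 and 1681.4 to 2415 (log2 0.65, SE 0.18, adjusted p = 0.00695). Members of the cluster were thus recovered unequally, from 0.16-fold for Mir382 to 2.26-fold for Mir487b in the ratio of means. This spread was not particular to the cluster. Beyond 1 on the log2 scale either way lay 33.3% of the tested Dlk1-Dio3 miRNAs and 39.9% of all miRNAs tested. Mir487b, like Mir411, shares 20 bases with another miRNA feature, so its value is uncertain. Mir434, which shares no such stretch, stood at 2.21-fold.

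**Figure D3:**
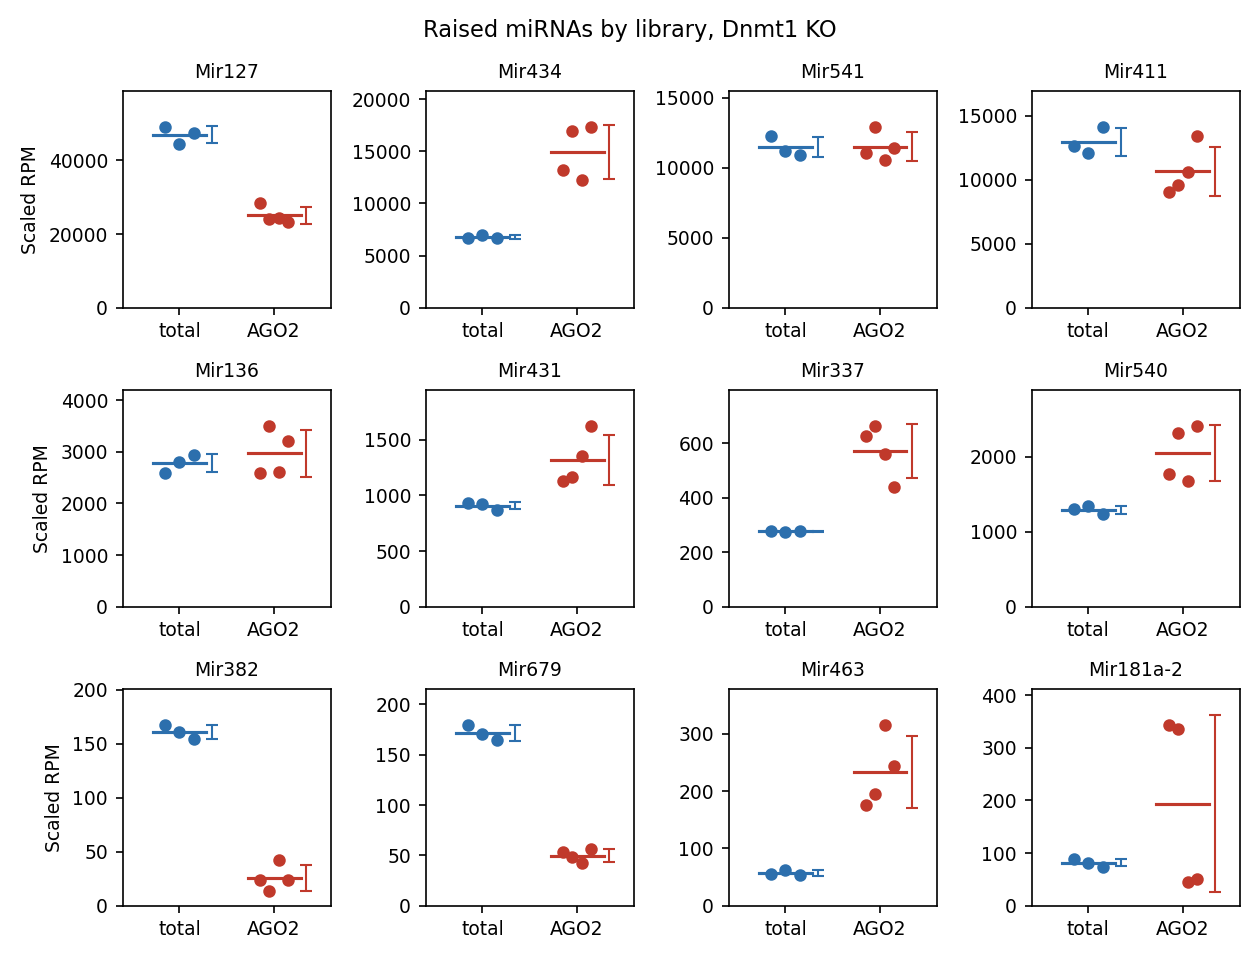
Scaled RPM of 12 raised miRNAs in the 3 total (blue) and 4 AGO2 (red) Dnmt1 KO libraries; points are libraries in replicate order, horizontal lines are means, and vertical bars are means ± SD. Mir127, Mir382 and Mir679 were lower in all 4 AGO2 libraries, Mir434, Mir431, Mir337, Mir540 and Mir463 higher in all 4, and AGO2 replicates 1 and 2 of Mir181a-2 stood at 344 and 335 against 45.1 and 51.4 in replicates 3 and 4.

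Over the whole Dlk1-Dio3 region, 45 of 57 miRNA features were tested, with a median of -0.15, 11 higher and 14 lower. These shares of 24.4 and 31.1% were near the 30.2 and 28.1% of all miRNAs tested. By host, the 5 tested miRNAs inside Rtl1 had a median of 0.28, the 2 inside Rian -0.64 and the 8 inside Mirg -0.26. The member of the region with the highest ratio was Mir1247 (chr12:111516258-111516339), next to Dio3, which was not among the raised miRNAs: 22.7, 23.9 and 23.7 scaled RPM in the totals against 67.9, 53.9, 172 and 175 in AGO2 (log2 2.09, SE 0.43, adjusted p = 0.00131). It was higher in all 4 AGO2 libraries, and replicates 3 and 4 stood well above replicates 1 and 2.

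The 11 raised miRNAs outside Dlk1-Dio3 had a median of 0.64, with 4 (36.4%) higher, none lower and 7 not called. Across all miRNAs tested, 30.2% were higher and 28.1% lower. Of these, 8 belong to the X-linked miRNAs between Fmr1 and Slitrk2, a cluster known for expression in the testis. Mir463 (chrX:64052398-64052472) had 54.5, 63.0 and 52.9 scaled RPM in the totals and 175, 195, 316 and 244 in AGO2. It was higher in 4 of 4 AGO2 libraries (log2 1.98, SE 0.24, adjusted p = 3.15e-05).

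Mir878, Mir465 and Mir743b of the same X-linked cluster were higher by 0.90 to 1.09 on the log2 scale. The value of Mir465 is uncertain, since it shares 20 bases with 4 other miRNA features. Mir871, the most abundant, had 464 to 628 in the totals and 557 to 1007 in AGO2, with overlap (log2 0.35, SE 0.24, adjusted p = 0.19). Mir470 had 538 to 640 and 313 to 750 (log2 -0.21, SE 0.33). Over the 11 tested X-linked miRNAs of 20 in the table, 5 were higher and none lower, with a median of 0.49. That is 45.5% higher, beside 30.2% higher and 28.1% lower of all miRNAs tested. Mir181a-2, Mir212 and Mir215, the other 3 raised miRNAs, were not called.

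The make-up of the totals and the pull-down differed in another respect. Of 9 features fixed as markers of fibroblast feeder or mesenchymal cells, 8 were tested (3 of them, Mir10a, Mir196a-1 and Mir196a-2, filed as processed_transcript and so not in the miRNA total). In AGO2 6 (75%) were lower and 2 (25%) higher (3 and 3 with TMM over all features). Among miRNA features tested 28.1% were lower and 30.2% higher, and among all features 76.8 and 10.1%. The summed level of the markers was 32593 to 37981 RPM in the totals and 5011.1 to 5970.2 RPM in AGO2 (5.69 to 6.44 and 0.512 to 0.609% of miRNA reads). The defining features Mir199a-2 and Mir214 were at 0 to 4.95 scaled RPM in AGO2. ESCs were cultured with or without feeder cells, and the labels do not say which holds for each library. Mir143 had 28278, 26581 and 27888 scaled RPM in the totals and 2975, 3261, 3510 and 3860 in AGO2 (log2 -3.03, SE 0.13, adjusted p = 9.68e-09). Mir10a (log2 -4.53, SE 0.32), Mir10b (-3.32, SE 0.59), Mir214 (-7.11, SE 0.64), Mir199a-2 (-5.11, SE 0.21) and Mir145 (-2.26, SE 0.21) were lower too, and Mir196a-1 and Mir196a-2, at 8.81 to 30.2 scaled RPM in the totals, were higher.

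The same markers varied among the totals. They took 3.04 to 3.48% of miRNA reads on day 6, 3.29 to 3.95% on day 11 and 0.362 to 0.386% on day 25 in Dnmt1 KO. Among these days, day 25 was the one below the AGO2 level and day 9 the highest. In the library labelled none they took 0.621%. Their part in the values of the raised miRNAs was not tested. In bulk samples fewer cells of a type and less RNA per cell cannot be told apart.

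The 11 ESC markers, of which 10 were tested, the miRNAs of the miR-290 and miR-302 clusters that mark pluripotent cells, took 18.5 to 19.2% of miRNA reads in the totals and 19.5 to 28.01% in AGO2. Of the 4 blood markers 2 were tested, Mir150, which was higher (below), and Mir142 (log2 0.43, SE 0.23, adjusted p = 0.104). Neural markers summed to at most 5.15 RPM in any of the 7 libraries, and the muscle and liver markers to at most 0.296 RPM.

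**Figure D4:**
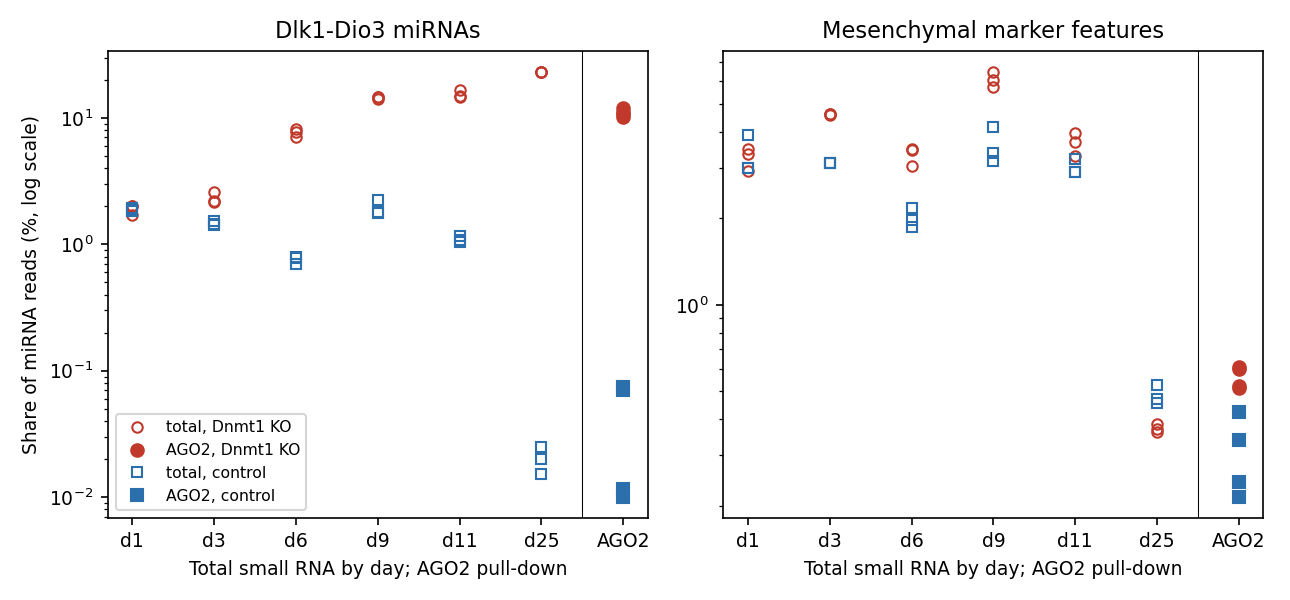
Share of miRNA reads (%, log axes) of the Dlk1-Dio3 miRNAs (left) and of the mesenchymal marker features (right) in total small RNA of days 1 to 25 (open) and in AGO2 (filled), for Dnmt1 KO (red circles) and control (blue squares); each point is 1 library. AGO2 of Dnmt1 KO lies at 10.2 to 11.9% for Dlk1-Dio3 and at 0.512 to 0.609% for the markers, and totals of day 25 are at 22.9 to 23.1 and 0.362 to 0.386%.

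Among the miRNAs with the highest ratios, only Mir463 met the rule for raised miRNAs. Raised miRNAs were 53 of the 281 tested, so few would fall among the highest in any case. Some of the others missed the rule through its cutoff of 1 on day 6. Mir672 changed by 0.44 on day 6 and 1.12 on day 11 (log2, Dnmt1 KO against control), and Mir1247 by 0.53 and 1.28. Mir423 (-0.22 and -0.12) and Mir877 (-0.30 and -0.25) went the other way. Mir672 (chrX:101311514-101311613) had 296, 313 and 253 scaled RPM in the totals and 2014.7, 2164, 1574 and 1904 in AGO2 (log2 2.73, SE 0.18, adjusted p = 2.15e-07). Mir423 (chr11:76891566-76891674) had 1979, 1741 and 1443 against 9158, 9877, 9854 and 12152 (log2 2.58, SE 0.16, adjusted p = 1.63e-07). In both, every AGO2 library was above every total.

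Mir150, a miRNA of lymphocytes, had 269.7 to 284 in the totals and 915 to 2346 in AGO2 (log2 2.58, SE 0.30), and Mir1943 had 12.3 to 18.3 and 66.2 to 139 (log2 2.61, SE 0.32). Mir877, AC149277.1, Mir467d, Mir1247 and Mir367 completed the 10 highest, with log2 values of 2.08 to 2.52. Mir367 rested on few reads, at most 5.37 scaled RPM in a total library, and AGO2 replicate 4 stood at 5.97.

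Among the 10 lowest were features whose names are those of genomic clones. AC113316.1, inside Cdk8, had 2045 to 2288 scaled RPM in the totals and 2.44 to 18.5 in AGO2 (log2 -8.17, SE 0.61), and AL844840.2 had 3107 to 3315 and 4.63 to 34.7 (log2 -7.83, SE 0.69). Of the 30 clone-named miRNA features tested, 11 (36.7%) were lower and 5 (16.7%) higher, beside 28.1 and 30.2% of all miRNAs tested. Their median was -0.28, and 14 were not called. Mir2137 had 4339 reads in the 3 totals together and a single read in AGO2, so it passed the filter through the totals alone. The ratio of pooled reads per depth was 6001, with an exact 95% interval from 1076 to 237073 that covers counting error only. Between the group means of scaled RPM the ratio was 2236.

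The most abundant miRNAs of the pull-down were Mir295, Mir182, Mir92-1, Mir22 and Mir92-2. Mir295, of the ESC-specific miR-290 cluster, had 71631 to 77069.6 scaled RPM in the totals and 95952, 111575, 153651 and 146064 in AGO2 (log2 0.73, SE 0.16, adjusted p = 0.0019; -0.040 against totals of day 25). Mir182 had 144512 to 151250 and 101515 to 158235, with overlap (log2 -0.31, SE 0.14, adjusted p = 0.0734). Mir92-1, the last hairpin of the miR-17-92 polycistron, had 39146 to 42304 and 120628, 112375, 80538 and 101134 (log2 1.33, SE 0.14, adjusted p = 8.10e-06).

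Hairpins of 1 transcript had unequal values here as well. In miR-17-92, Mir17, Mir18, Mir19a and Mir20a were not called and lay between -0.19 and -0.03, Mir19b-1 was lower (-1.45, SE 0.34) and Mir92-1 higher. Mir19b-1 rested on 9 to 30 reads in each AGO2 library, and Mir19b-2 of a related cluster, which carries the same mature miR-19b-3p and can share its reads, had 0.83 (SE 0.28). Of 15 miRNAs of the 3 related clusters, 6 were higher and 4 lower, with a median of -0.03. These shares of 40 and 26.7% stand beside 30.2 and 28.1% of all miRNAs tested. In the miR-290 cluster 3 of 7 (42.9%) were higher and 1 (14.3%) lower. The lower one was Mir292, with 27128 to 29663 in the totals and 20318 to 24426 in AGO2 (log2 -0.41, SE 0.11).

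miRNAs with the same seed covered a range of ratios. Of the miRNAs with the seed AUUGCAC printed above, Mir92b had a log2 value of 1.64 (SE 0.26), Mir92-2 of 1.07 (SE 0.26), Mir363 of 0.49 (SE 0.15), Mir32 of 0.16 (SE 0.22) and Mir25 of 0.13 (SE 0.12), and the last 2 were not called. Mir92-1 and Mir92-2 carry the same mature miR-92a-3p, and their reads cannot be assigned to either hairpin from that arm. Differences between members of a seed family were not tested.

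The miR-200 family, known from epithelial cells, was higher in 4 of 5 members, Mir141, Mir429, Mir200a and Mir200b, with log2 values of 0.94 to 1.74, and Mir200c had 0.00 (SE 0.25). The 4 tested miRNAs that bypass the Microprocessor or DICER were all higher: Mir877 (2.52, SE 0.35), Mir484 (1.97, SE 0.24), Mir702 (1.26, SE 0.25) and Mir320 (0.76, SE 0.22). Mir484 had 414 to 562 scaled RPM in the totals and 2358, 2292, 1646 and 1298 in AGO2. Among all miRNAs tested, 30.2% were higher.

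The miR-302 cluster, also typical of pluripotent cells, followed the subsets. Mir302a had 58.7 to 59.7 scaled RPM in the totals, 415 and 404 in AGO2 replicates 1 and 2, and 92.2 and 76.3 in replicates 3 and 4 (log2 1.63, SE 0.61, adjusted p = 0.0306). Mir302d had 72.0 to 94.4 in the totals and 341, 475, 63.4 and 78.6 in AGO2, and was not called (adjusted p = 0.161). Of the 4 tested, 3 were higher (75%, beside 30.2% of all miRNAs tested). Against totals of day 25 Mir302a was at -0.44 and Mir367 at -1.10. The 3 miRNAs of the miR-183 cluster were not called, with log2 values of -0.31 to 0.39.

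Within Sfmbt2, an imprinted gene whose intron holds a rodent-specific miRNA cluster, 9 of 119 miRNA features were tested, 5 higher and 1 lower, with a median of 0.62. The shares for all miRNAs tested were 30.2% higher and 28.1% lower. Mir467d had 114 to 134 in the totals and 490.0 to 737 in AGO2 (log2 2.30, SE 0.20), and Mir669c 87.7 to 110.2 and 22.2 to 72.8 (log2 -1.46, SE 0.38). These values are uncertain, since Mir467d shares 20 bases with 15 other miRNA features and Mir669c with 46.

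The let-7 family, which rises as cells differentiate, was recovered less than the typical miRNA. Of 6 tested members 5 were lower (83.3%, beside 28.1% of all miRNAs tested) and none higher, with a median of -2.96. With TMM over all features 2 were higher and 2 lower, with a median of 0.29. Mirlet7i (chr10:122422696-122422780) had 2537, 2307 and 2604 scaled RPM in the totals and 55.2, 57.04, 114 and 177 in AGO2, lower in all 4 libraries (log2 -4.78, SE 0.39, adjusted p = 1.45e-06). Mirlet7d, with the same seed, had 364, 299 and 257 in the totals and 62.2, 81.3, 361 and 386 in AGO2, where the subsets lay apart (log2 -0.89, SE 0.64, adjusted p = 0.217). The family took 0.456 to 0.511% of miRNA reads in the day 9 totals and 0.0122 to 0.0147% in those of day 25, and against day 25 Mirlet7i was 2.69 higher in AGO2 on the log2 scale, with 3 of 5 tested members higher and none lower. The mesenchymal markers moved with it: 5.69 to 6.44% of miRNA reads on day 9 and 0.362 to 0.386% on day 25; their part was not tested.

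**Figure D5:**
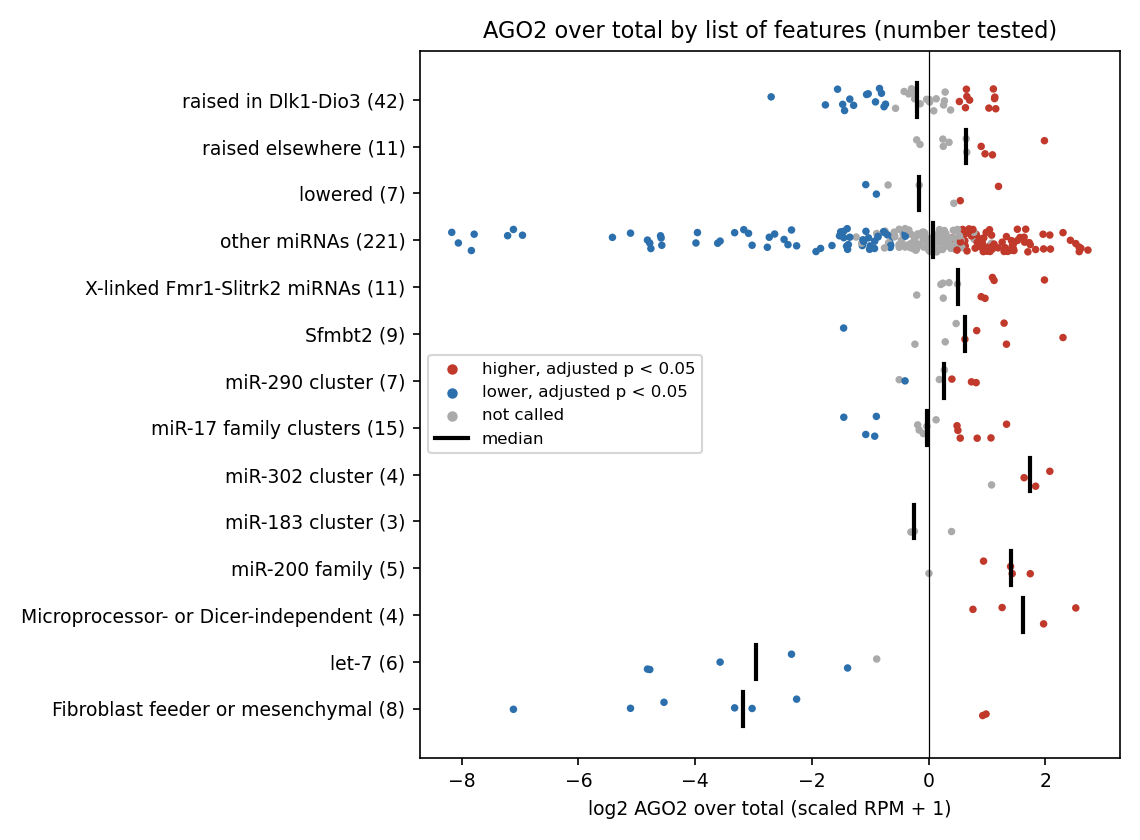
log2 AGO2 over total (scaled RPM + 1) of the tested members of each list, with the number tested in brackets; points are features, red higher and blue lower at an adjusted p under 0.05 (limma), grey not called, and black bars are medians. The raised miRNAs of Dlk1-Dio3 spread around a median of -0.19, the other raised miRNAs around 0.64, and the let-7 and mesenchymal features around -2.96 and -3.17.

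Few features outside the annotated miRNA class were enriched. Of 942 tested features that are not of that class and overlap no feature of it, 24 were higher and 901 lower, with a median of -4.58. Mlkl, Celf2 and Ift57, given below, passed the filter through AGO2 alone, so their direction followed from it. Other features passed through the totals alone, so these counts are a description only. The 24 include Mir196a-1 and Mir196a-2, miRNA genes that the annotation files as processed_transcript. Mlkl, the gene of a pseudokinase of necroptosis (chr8:113835697-113862077), had 1388 reads in AGO2, at 38.2, 92.96, 45.1 and 75.4 scaled RPM, and 3 reads in all 3 totals, a ratio of 335 with an exact 95% interval of 114 to 1624 for counting error. Celf2, which encodes an RNA-binding protein, had 1.47 to 3.88 in the totals and 92.4 to 105 in AGO2 (log2 4.90, SE 0.26), and Ift57, of intraflagellar transport, had at most 0.597 and 26.8 to 47.0 (log2 4.69, SE 0.27).

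The table gives whole genes and not positions, so the sequences behind these reads are unknown. 3110007F17Rik differed between subsets, with 225, 245, 1087 and 1218.4 in AGO2 replicates 1 to 4 against 19.2 to 21.6 in the totals. RefSeq (GRCm38, used for names and neighbours only) places a miRNA gene inside another 4 of these 24 features, Mir664 in Rab3gap2, Mir6944 in Dbn1, Mir7070 in Fbxw9 and Mir7068 in Cherp. Ccdc30 (1611.7 against 4498 scaled RPM) and BX470216.1 (1295 against 3977) overlap and may count the same reads.

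The lowest features were snoRNAs and their hosts. Snord12 (chr2:166890776-166890865), a C/D box snoRNA, had 7110.4, 8799 and 6682 scaled RPM in the totals and 0.707, 2.64, 0.244 and 1.94 in AGO2 (log2 -11.74, SE 0.37, adjusted p = 1.68e-09). Its host 1500012F01Rik (-11.54, SE 0.49), the SNORD81 feature at chr1:162968439-162968514 (-11.46, SE 0.36) and AL671866.1 (-11.56, SE 0.25) followed. Snord12 and these features passed the filter through the totals alone, so their direction followed from it. Of 210 snoRNA features tested, 206 were lower (98.1%) and 1 higher. Lower features made up 76.8% of all features tested, and 95.6% of those outside the miRNA class that overlap no feature of it. The share of snoRNAs was thus near that of other features without miRNA.

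In control cells the Dlk1-Dio3 miRNAs behaved differently. The ratio was compared between genotypes with an interaction term in a limma fit of 14 libraries, in which 206 of 1564 features (13.2%) were called; among 288 miRNA features 16.7% were higher and 6.25% lower in Dnmt1 KO than in control. The count of calls was 460 with AGO2 replicates 1 and 2 alone, 326 with replicates 3 and 4 alone and 121 without total replicate 3, and with TMM over all features it was 129, where 62 were higher and 67 lower against 124 and 82. Of 42 raised Dlk1-Dio3 miRNAs 41 had a higher ratio in Dnmt1 KO, with a median difference of 3.94. In control all 42 were lower in AGO2 than in total (37.5% of all miRNAs were), by 1.93 to 7.55 on the log2 scale, whereas in Dnmt1 KO their median in the same fit was -0.20. Of the 11 raised miRNAs elsewhere 2 had a higher ratio.

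The levels behind this are unequal. Dlk1-Dio3 miRNAs took 1.76 to 2.26% of miRNA reads in the control totals of day 9 and 0.0749, 0.0703, 0.0123 and 0.0101% in AGO2 control replicates 1 to 4. Mir127 had 5730.5 to 6808 scaled RPM in the control totals and 198, 182, 4.59 and 4.45 in control AGO2 (in the scale of this fit), a difference of the ratio of 6.63 (SE 1.45, adjusted p = 0.00681). Mir434 (6.95, SE 1.28), Mir431 (6.03, SE 0.99) and Mir136 (5.78, SE 0.78) were alike.

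This difference was tied to the totals used. Against the totals of day 25 none of the raised Dlk1-Dio3 miRNAs had a higher ratio in Dnmt1 KO, and 41 or 42 did with day 9 totals under the other scalings, under either subset and with any of the 14 libraries left out. Control totals held 0.703 to 0.793% of Dlk1-Dio3 miRNAs on day 6 and 0.0153 to 0.0251% on day 25. The mesenchymal markers in control were at 3.16 to 4.15% of miRNA reads in the day 9 totals, 0.455 to 0.528% in those of day 25 and 0.216 to 0.425% in AGO2; their part in the difference was not tested.

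Among the miRNAs with the lowest difference, Mir183 had 12497 to 12804 scaled RPM in Dnmt1 KO totals and 6224.7 to 17606 in AGO2, and in control 20419.7 to 22131.5 and 35008 to 68709, a difference of the ratio of -1.32 (SE 0.38, adjusted p = 0.0331). AL808027.2 (-1.95, SE 0.45), Mir879 (-1.61, SE 0.38) and Mir1199 (-1.54, SE 0.46) were the others. AL808027.2 rested on 31 reads in the 4 AGO2 libraries of Dnmt1 KO.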

How the data were processed

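Small RNA was sequenced by the authors, who kept reads of 20 to 24 nt (Trim Galore 0.3.5 and Bowtie2 2.2.9 appear in the submitters' processing notes), aligned them to NCBIM37 and quantified 32101 annotated features in SeqMonk. The deposited table is named for counts but holds RPKM values that the authors scaled to the library and to the span of each feature. Multiplied by the span, they gave RPM, whose low values were whole multiples of 1 read (tolerance 5%), and from these steps the reads and depths were read back. No column of sample values went unused. Whether counting used strand is not given in the sources used here. All features matched GENCODE vM1 by position; of the 1573 miRNA features, 852 are inside a second feature that counts the same reads.

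RPM was divided by TMM factors over miRNA features (trims of 30 and 5%), features with at least 10 RPM in at least 3 of the 7 libraries were kept, and log2(RPM + 1) was tested with limma 3.58.1 (R 4.3.3; trend, two-sided, Benjamini-Hochberg over all features tested, called under 0.05). An interaction term in 14 libraries tested the ratio between genotypes. Class shares were tested by an exact permutation test (scipy 1.17.1). The main fit was also run on simulated libraries with changes drawn evenly in both directions and a single spread for all features. Those libraries held no AGO2 subsets and no excess of lower features, so the run does not check the fit under the conditions of these data. Replicate numbers are given in the titles. The deviations of same-numbered total and AGO2 libraries correlated at 0.26, -0.14 and 0.08. These values do not settle whether the numbers pair the libraries, and the main fit used no pairing. Intervals cover counting error only.

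The members and gene lists were chosen with earlier results of these data known. Features named by rule were the 10 highest and 10 lowest called miRNAs without overlap, the 4 highest and 4 lowest other features, the 5 most abundant miRNAs in AGO2, up to 4 per list, 4 in each direction for the interaction, and Dnmt1; every other feature named was chosen after its values were seen. Alternatives were other scalings, pseudocounts, filters, a voom fit on the reads, other total libraries, AGO2 subsets and leaving out each library.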

Additional observations from a re-analysis of the deposited data

Results flagged for a closer look

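Of 64 groups of 4 AGO2 values examined for a sample far from the others, 3 stood out, where chance alone gives about 1 in 20. In Ift57 the gap between AGO2 replicate 2 (47.0 scaled RPM) and its nearest neighbour was 0.955 of the whole range. In Mir2137, where 1 read in replicate 2 stood against 0 in the others, the gap was 1 times the range. For the miRNA share of the library, AGO2 replicate 3 (97.9%) lay apart from the others by 0.873 of a range of under 1 percentage point.

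The ratio of AGO2 to total differed between Dnmt1 KO and control for 206 of 1564 features by the interaction term. The highest differences on the log2 scale were those of Mir434 (6.95), Mir127 (6.63), Mir431 (6.03) and Mir136 (5.78), all of Dlk1-Dio3, and the lowest those of AL808027.2 (-1.95), Mir879 (-1.61), Mir1199 (-1.54) and Mir183 (-1.32). In the Dnmt1 KO library labelled none, which enters no comparison, Dlk1-Dio3 miRNAs held 10.2% of 4512 miRNA reads (462 reads, Wilson 95% interval 9.39 to 11.16%), against 0.129% (62 of 48045 reads, 0.101 to 0.165%) in the control library labelled none.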

How the results depend on the processing

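Of the values of named features under alternatives, 1396 kept direction and side of the threshold, 63 lost the threshold, 30 gained it and 26 reversed. The count of called features (1216) became 14580 with no filter (20631 tested), 533 at a filter of 50 RPM and 432 without overlapping features; a voom fit on the reads read back gave 1221 and leaving out 1 library 1170 to 1226, and the cause beyond the number tested was not tested. Same-numbered libraries were not treated as pairs, and a replicate block gave 1219 calls, and 189 in place of 206 for the interaction. The miRNA share difference was 42.9, 40.9 and 44.2 points with totals of days 6, 11 and 25. It was 14.7 points with the 5 most abundant miRNAs taken out of the miRNA sum but kept in the library total. The raised miRNAs less the others were at 0.60, -0.50 and -1.18 with totals of days 6, 11 and 25, and at 0.58 outside Dlk1-Dio3. The interaction gave 129 calls with TMM over all features (62 higher, 67 lower, against 124 and 82), 176 with library totals (130 and 46), 460 with AGO2 replicates 1 and 2 alone, 326 with 3 and 4 alone, and 121 to 200 with 1 library left out, of which only the lowest, without total replicate 3, was beyond 1.5 times. Leaving out a library of the interaction, summaries of lists under other totals, the raised miRNAs without Mir127 and the comparison with RefSeq miRNAs alone were chosen after seeing the data. With TMM over all features, Mir669c (1.77), Mir182 (2.99), Mir183 (3.05), Mir290 (2.78), Mir127 (2.38), Mir382 (0.53), Mirlet7d (2.38), Mir19b-1 (1.44) and Mir470 (3.08) reversed, and with library totals Mir182 (0.29). With other totals, Mir200c (-0.78) and Mir127 (0.14) reversed on day 6, Mir200c (-0.75) and Mir871 (-0.62) on day 11, and Mir302a (-0.44), Mir367 (-1.10), Mir293 (-0.16), Mir295 (-0.040), Mirlet7i (2.69), Mir434 (-0.31), Mirlet7d (2.72) and Mir871 (-0.55) on day 25, as did the interaction of Mir136 (-3.37), Mir431 (-0.62), Mir127 (-0.85) and Mir434 (-0.93). With all libraries thinned to the shallowest, at 1152390 reads, 1127 features were called.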

Other observations

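Mir290 and Mir293 of the miR-290 cluster lay on either side of the typical miRNA, with log2 AGO2 over total of -0.51 (SE 0.27, adjusted p = 0.11, limma, not called) for Mir290 and 0.40 (SE 0.12, adjusted p = 0.0131) for Mir293. By the first base of the RefSeq arms, which bears on the strand that Argonaute keeps, the raised miRNAs did not separate: the median log2 AGO2 over total was 0.05 for 10 raised miRNAs with U at the start of every listed arm, 0.00 for 21 with U in 1 of the arms and 0.02 for 17 with none. For the other miRNAs the medians were -0.10 (18 miRNAs), 0.03 (76) and 0.23 (73), given as a description, since the sequenced arm is not known.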
